A study of Mus musculus with 6 samples.

Results

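The BCL2 family of apoptosis regulators was described across clones of 4T1, a mouse mammary carcinoma line of the BALB/C strain that spreads from the mammary gland to distant organs. Members were the rows whose gene name was Bax, Bak1, Bad, Bid, Bcl2, Bcl2l1, Mcl1, Bbc3, Pmaip1 or Bcl2l11, 10 of the 19179 genes listed. All 10 were found, and 9 of them were among the 10097 genes tested, which had at least 1 RPKM in at least 3 of the 6 libraries. Messenger RNA was sequenced from 3 libraries of clones with the tissue label breast cancer stem cell, called stem-labelled here, and 3 libraries of clones with the label breast cancer cell, called other. Both kinds had grown for 14 days from wells seeded with a single cell. The labels speak of 10 clones collected and of 3 independent experiments, in the same words for every library. They do not say what made a clone one kind or the other. How many clones went into a library and which libraries share an experiment are not given either, so p-values measure the spread between these libraries. The comparison asks which BCL2 family transcripts differ between the kinds of clone.

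BCL2 family proteins decide whether the mitochondrial outer membrane is opened, the step that releases cytochrome c and starts the intrinsic caspase cascade. Bax and Bak1 encode the effectors that form the pore. Bcl2, Bcl2l1 (BCL-XL) and Mcl1 encode antiapoptotic proteins that hold effectors and BH3-only proteins in check. Bad, Bid, Bcl2l11 (BIM), Bbc3 (PUMA) and Pmaip1 (NOXA) encode BH3-only proteins, which sense damage or loss of survival signals and either block the antiapoptotic members or activate the effectors. Much of this control acts on the proteins, which were not measured here.

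On the deposited RPKM, the stem-labelled clones held less transcript of both effectors and of the BH3-only gene Bad. They held more of the antiapoptotic genes Mcl1 and Bcl2l1 and of the BH3-only genes Bid and Bcl2l11. The antiapoptotic gene Bcl2 was also higher, but it reached 1 RPKM only in the stem-labelled libraries, so passing the filter fixed its direction and it is left out of the counts here. Of the other 8 members tested, 4 rose, 3 fell and 1 did not pass (limma on log2 of RPKM + 1, adjusted p under 0.05 over all genes tested). The calls of Bax, Bad and Bcl2l11 held under all 17 other settings run. Those of Bak1, Bid, Mcl1 and Bcl2l1 depended on the processing and were lost under 2, 2, 4 and 9 of them. Of all genes tested, 55.2% were called, 29.9% as higher and 25.4% as lower. Of the 9383 that reached 1 RPKM in libraries of both groups, as these 8 did, 52.1% were called, 27.4% as higher and 24.8% as lower, so a call alone sets no member apart. The groups did not overlap for any of the 8, with the stem-labelled libraries above for 4 and below for 4, against 60.8% of those 9383 genes (33.5% above and 27.3% below) and 63.5% of all genes tested (35.7% above and 27.8% below). The median change of the 8 members was 0.07 on the log2 scale, against 0.09 over those genes. A change below is the log2 fold change of RPKM + 1 ± SE and is positive where the stem-labelled clones were higher. For low genes the added 1 shrinks it.

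The libraries of the groups also differed as a whole. Reads in genes numbered 21196572 to 22838870 per stem-labelled library and 15357608 to 16830762 per other library. Relative to the library total that the authors scaled by, these were 0.658 to 0.757 for the stem-labelled and 1.23 to 1.53 for the other libraries, and changes followed gene length. Each member is therefore also given after correcting for length and GC content, and after rescaling to the reads summed over genes, which moved the median change of all genes to 0.86. A rescaled change below is to be read against that median, while its p-value is against 0. The epithelial markers were present in every library but differed between the groups in both directions. Cdh1 had 59.8 to 77.8 RPKM in the stem-labelled and 13.7 to 17.5 RPKM in the other libraries, and Krt18 had 298 to 489.5 RPKM in the stem-labelled and 930.2 to 1793 RPKM in the other libraries. Krt8 likewise had 482 to 767 RPKM in the stem-labelled and 849 to 1505 RPKM in the other libraries, while Epcam overlapped at 50.2 to 59.8 RPKM and 53.5 to 58.5 RPKM. The 3 leukocyte markers matched summed to at most 0.414 RPKM and the 2 endothelial markers to at most 0.0672 RPKM. The 3 fibroblast markers summed to 1.64 to 3.38 RPKM in the stem-labelled and 0.396 to 0.929 RPKM in the other libraries, nearly all of it Pdgfra, with Col1a2 and Dcn at 0.0298 RPKM or less. The part of these markers in the results was not tested.

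**Figure D1:**
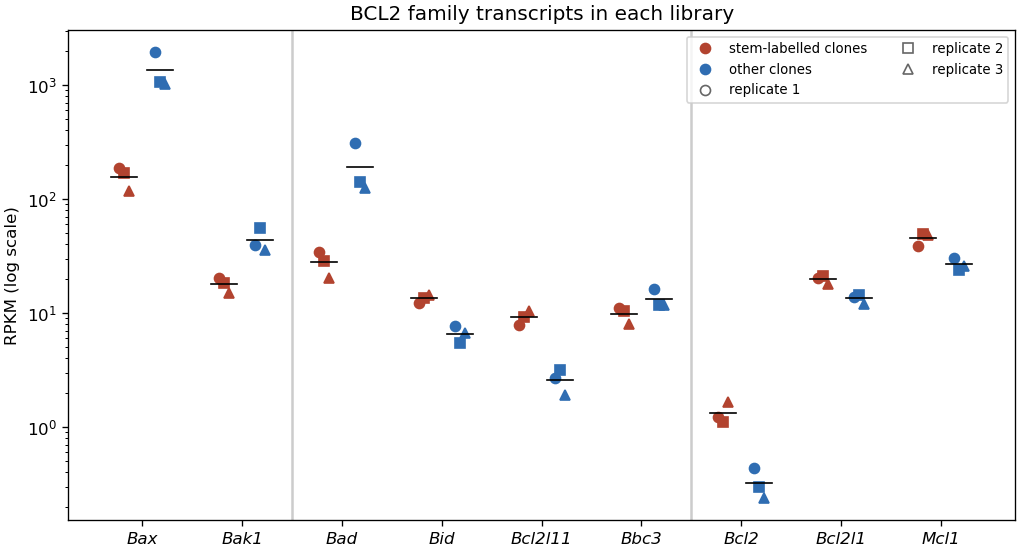
RPKM of 9 members on a log axis in each of the 6 libraries, stem-labelled clones left of other clones, with a line at each group's mean; vertical lines separate effectors, BH3-only genes and antiapoptotic genes. Pmaip1, at 0 in 5 libraries, is not drawn. Bax, Bak1 and Bad lie lower in the stem-labelled clones, and Bid, Bcl2l11, Bcl2, Bcl2l1 and Mcl1 higher.

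Levels, which RPKM gives per length of gene, spanned a wide range within each group. In the stem-labelled clones the order of mean RPKM was Bax, Mcl1, Bad, Bcl2l1, Bak1, Bid, Bbc3, Bcl2l11, Bcl2 and Pmaip1. Libraries overlapped between the neighbours Bad and Bcl2l1, Bcl2l1 and Bak1, and Bbc3 and Bcl2l11. In the other clones the order was Bax, Bad, Bak1, Mcl1, Bcl2l1, Bbc3, Bid, Bcl2l11, Bcl2 and Pmaip1, where the neighbours Bcl2l1 and Bbc3 overlapped. Mcl1 thus stood above Bad and Bak1 in the stem-labelled clones and below both in the other clones. Mcl1 had the highest level of the antiapoptotic genes in both groups, and Bcl2 the lowest.

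Bax (ENSMUSG00000003873, chromosome 7, 45461695 to 45466898 on GRCm38, minus strand) had 187, 170 and 117 RPKM in the stem-labelled libraries, against 1941, 1070 and 1023 RPKM in the other libraries. Every stem-labelled library lay far below every other library, and replicate 1 of the other clones was the highest. Bax fell by 3.05 ± 0.35 on the log2 scale (limma adjusted p = 0.000205), to a mean of 158 ± 36.5 RPKM against 1344.5 ± 517 RPKM in the other clones (SD, n = 3 each). The values rest on 12353 stem-labelled and 40621 other reads. By mean level Bax ranked 249 of all genes tested in the stem-labelled clones and 101 in the other clones. The files give Bax a length of 869 bases where its annotated exons cover 1576. Its level relative to longer members depends on the length chosen, while its uncorrected change hardly does. Its length decile and its corrected change rest on the 869 bases. It shares 192 exon bases with the annotated gene Gm45808 on the same strand, which was not analysed here. In the shortest length decile, 57 to 1075 bases, 61.1% of all tested genes were called lower and the median change was -1.17. Bax fell by 1.28 ± 0.25 after the length and GC correction (limma adjusted p = 0.00324) and by 2.11 ± 0.33 after rescaling (limma adjusted p = 0.000138).

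Bak1 (ENSMUSG00000057789, chromosome 17, 27019810 to 27029009), the second pore-forming effector, had 20.5, 18.3 and 15.0 RPKM in the stem-labelled libraries, against 39.4, 55.9 and 36.1 RPKM in the other libraries. The groups did not overlap. Bak1 fell by 1.23 ± 0.24 (limma adjusted p = 0.00231) and by 0.62 ± 0.19 after the correction (limma adjusted p = 0.0225). The call depended on the scaling. After rescaling to summed reads the change was -0.32 ± 0.28 (limma adjusted p = 0.310). The values rest on 3903 stem-labelled and 3680 other reads, where the stem-labelled libraries held more reads in genes. Bak1 shares 437 and 177 exon bases with 2 annotated entries of Ggnbp1 on the opposite strand. Whether counting used strand is not given in the sources used here. Ggnbp1 itself had 0.370 ± 0.0723 RPKM in the stem-labelled clones and 1.17 ± 0.604 RPKM in the other clones (SD, n = 3 each).

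Bad (ENSMUSG00000024959, chromosome 19, 6941861 to 6951898), a BH3-only gene whose protein is inactivated by survival kinases, had 34.6, 28.7 and 20.2 RPKM in the stem-labelled libraries, against 308, 139.9 and 125 RPKM in the other libraries. The groups did not overlap, and replicate 1 of the other clones stood above replicates 2 and 3. Bad fell by 2.64 ± 0.37 (limma adjusted p = 0.000425), by 1.83 ± 0.33 after the correction (limma adjusted p = 0.00204) and by 1.72 ± 0.34 after rescaling (limma adjusted p = 0.000722). In its length decile, 1790 to 2425 bases, the median change was -0.31 and 35.8% of genes were called lower. Bad shares 524 exon bases with Gpr137 on the opposite strand, which had 5.03 ± 1.06 RPKM in the stem-labelled clones against 74.4 ± 36.2 RPKM in the other clones. Whether counting told reads of the 2 genes apart in those bases is not given in the sources used here.

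Bcl2l11 (ENSMUSG00000027381, chromosome 2, 128126038 to 128162547), which encodes BIM, a BH3-only protein that binds all antiapoptotic members, had 7.89, 9.15 and 10.4 RPKM in the stem-labelled libraries, against 2.69, 3.18 and 1.90 RPKM in the other libraries. Every stem-labelled library lay above every other library. Bcl2l11 changed by 1.51 ± 0.21 (limma adjusted p = 0.000450) and rests on 6734 stem-labelled and 729 other reads. It lies in the decile of 6337 to 8322 bases, where 51.3% of genes were called higher and the median change was 0.58. After the correction it rose by 0.64 ± 0.17 (limma adjusted p = 0.0146), and after rescaling by 2.25 ± 0.26 (limma adjusted p = 2.02e-05).

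Bid (ENSMUSG00000004446, chromosome 6, 120891930 to 120916853), whose protein links death receptors to mitochondria once cut by caspase-8, had 12.4, 13.7 and 14.4 RPKM in the stem-labelled libraries, against 7.71, 5.50 and 6.63 RPKM in the other libraries. The groups did not overlap. Bid rose by 0.94 ± 0.20 (limma adjusted p = 0.00353). The call was lost after the correction, where the change was 0.52 ± 0.21 (limma adjusted p = 0.0648), and after rescaling it rose by 1.78 ± 0.24 (limma adjusted p = 4.36e-05). Bid shares 628 exon bases with Bcl2l13 on the opposite strand, which rose too, by 0.88 ± 0.18 (limma adjusted p = 0.0030).

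Bbc3 (ENSMUSG00000002083, chromosome 7, 16309616 to 16318205), which encodes PUMA, a BH3-only protein known as a p53 target, had 11.1, 10.4 and 8.10 RPKM in the stem-labelled libraries, against 16.3, 11.7 and 11.7 RPKM in the other libraries. The groups lay close together without overlapping. The change of -0.38 ± 0.22 did not pass (limma adjusted p = 0.168), and its sign depended on the processing. It was 0.67 ± 0.17 after the correction (limma adjusted p = 0.00926) and 0.48 ± 0.24 after rescaling (limma adjusted p = 0.0878). The rescaled 0.48 lay below the rescaled median of all genes, 0.86. Pmaip1 (ENSMUSG00000024521, chromosome 18, 66458604 to 66465550), which encodes NOXA, a BH3-only partner of MCL1, had 0 reads in each stem-labelled library, against 3, 0 and 0 reads in the other libraries, which left it out of the test. A count of 0 allows up to 3 reads, which for this gene is 0.0352 to 0.0398 RPKM in the stem-labelled and 0.0911 to 0.113 RPKM in the other libraries (counting error only). A difference was not detectable at this depth.

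Mcl1 (ENSMUSG00000038612, chromosome 3, 95658788 to 95663176), a short-lived antiapoptotic protein, had 38.5, 49.7 and 48.1 RPKM in the stem-labelled libraries, against 30.3, 24.1 and 26.0 RPKM in the other libraries. Mcl1 rose by 0.74 ± 0.22 (limma adjusted p = 0.0168), without overlap between the groups. The call was lost after the correction (0.37 ± 0.20, limma adjusted p = 0.151), without replicate 2 of the stem-labelled clones (0.67, limma adjusted p = 0.0791) and without their replicate 3 (0.69, limma adjusted p = 0.0514). After rescaling Mcl1 rose by 1.65 ± 0.25 (limma adjusted p = 0.000104).

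Bcl2l1 (ENSMUSG00000007659, chromosome 2, 152780668 to 152831728) has splice forms with opposite effects on survival, which the values per gene do not separate. It had 20.4, 21.3 and 17.9 RPKM in the stem-labelled libraries, against 13.9, 14.5 and 12.1 RPKM in the other libraries. Each group was narrow and the groups did not overlap. The rise of 0.52 ± 0.20 lay just inside the threshold (limma adjusted p = 0.0462). It was 0.46 ± 0.16 after the correction (limma adjusted p = 0.0414) and 1.41 ± 0.24 after rescaling (limma adjusted p = 0.000234), where the median of all genes was 0.86. Leaving out any one of the 6 libraries ended the call, with adjusted p from 0.0534 to 0.157 (limma) and changes from 0.45 to 0.59.

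Bcl2 (ENSMUSG00000057329, chromosome 1, 106538178 to 106714274), the founding antiapoptotic gene, had 1.22, 1.12 and 1.65 RPKM in the stem-labelled libraries, against 0.440, 0.298 and 0.239 RPKM in the other libraries. It passed the filter on low values only through the stem-labelled libraries, where it was high, so it had to differ. The change was 0.81 ± 0.18 (limma adjusted p = 0.00382), and it rests on 1115 stem-labelled and 104 other reads. Bcl2 is the longest member, in a decile of 8323 bases and more where 59.6% of genes were called higher and the median change was 0.72. After the correction its change was -0.0058 ± 0.14 (limma adjusted p = 0.976), and after rescaling 1.20 ± 0.22 (limma adjusted p = 0.000358). The correction was taken off a change that the added 1 had shrunk, so it may take off too much here. With 0.1 added in place of 1, the uncorrected change was 1.76 ± 0.40. Bcl2 shares 558 exon bases with the opposite-strand gene D630008O14Rik.

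**Figure D2:**
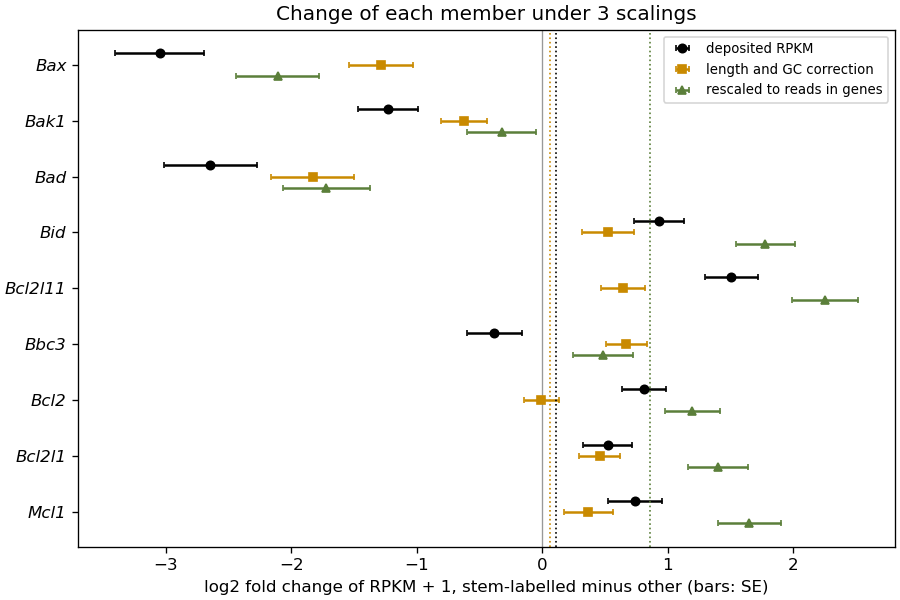
Log2 fold change (stem-labelled minus other, bars SE) of the 9 members on the deposited RPKM, after the length and GC correction and after rescaling to reads in genes; dotted lines mark the median of all genes tested under each (0.11, 0.07 and 0.86). Bax, Bak1 and Bad lie below 0 under all 3, Bid, Bcl2l11, Bcl2l1 and Mcl1 above 0 under all 3, and Bbc3 and Bcl2 change sign.

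By role, both effectors fell, the antiapoptotic genes Mcl1 and Bcl2l1 rose, and of the 4 BH3-only genes tested 2 rose and 1 fell, with Bcl2 again left aside. On the deposited scale Bcl2l11, the longest of these members, had the highest change and Bax, the shortest, the lowest, the same order as the trend over all genes. Against the median of its own length decile, Bax lay 1.88 lower, Bad 2.34 lower and Bak1 0.92 lower, while Bcl2l11 lay 0.93 higher, Bid 0.80 higher and Mcl1 0.61 higher. Bcl2l1, Bcl2 and Bbc3 differed from theirs by 0.19, 0.09 and -0.07. For the low Bcl2, the change set against that median was shrunk by the added 1. After the correction Bax, Bak1 and Bad were called lower and Bcl2l11, Bcl2l1 and Bbc3 higher, where 47.8% of all genes were called, 22% lower and 25.8% higher. After rescaling Bax and Bad were called lower and Bid, Bcl2l11, Bcl2, Bcl2l1 and Mcl1 higher, where 71% of all genes were called, 12.3% lower and 58.7% higher.

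**Figure D3:**
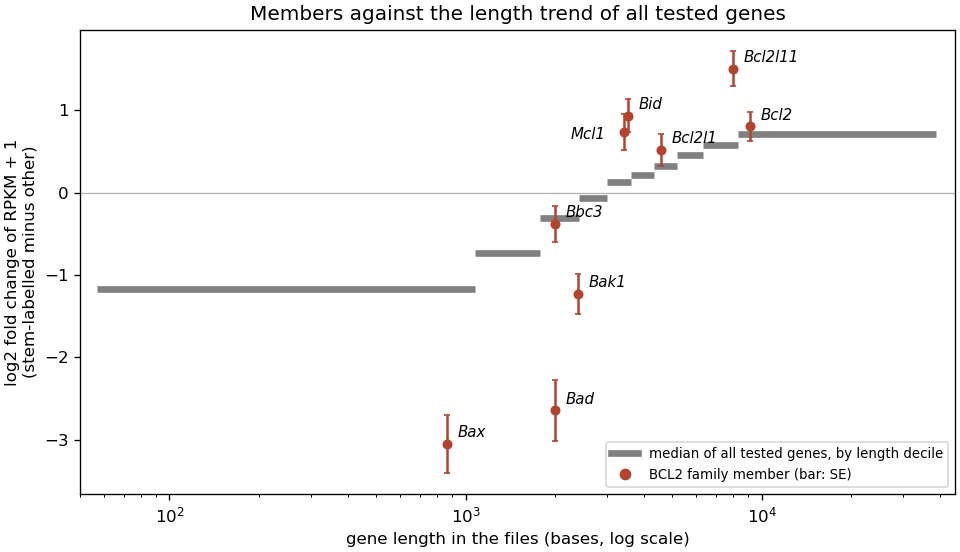
Log2 fold change of each member (points, bars SE) against its gene length in bases on a log axis, with the median change of all tested genes in each length decile as grey bars. Bax, Bad and Bak1 lie below the grey bars at their length, Bcl2l11, Bid and Mcl1 above, and Bcl2, Bcl2l1 and Bbc3 close to them.

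A ratio of members in the same library does not depend on the library total, though it still follows length. It was computed for 6 pairs and is given as a description, with no test. The ratio of Bax to Bcl2l1 was 9.17, 7.96 and 6.52 in the stem-labelled libraries, against 139, 73.6 and 84.5 in the other libraries. After the correction it was 15.5, 13.5 and 15.3 in the stem-labelled libraries, against 64.9, 49.9 and 40.0 in the other libraries, still with no overlap.

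Bak1 and Bcl2l1 were about level in the stem-labelled libraries, at ratios of 1.01, 0.860 and 0.838, against 2.83, 3.84 and 2.98 in the other libraries. The ratio of Bak1 to Mcl1, the 2 genes whose proteins form a well known inhibitory complex, was 0.532, 0.368 and 0.311 in the stem-labelled libraries, against 1.30, 2.32 and 1.39 in the other libraries. Both stayed apart after the correction, at differences of -1.16 and -1.06 on the log2 scale. Bad to Bcl2l1 stood at 1.70, 1.35 and 1.13 in the stem-labelled libraries, against 22.1, 9.62 and 10.3 in the other libraries.

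The balance between the antiapoptotic genes Bcl2l1 and Mcl1 differed less, and no ratio with Bcl2 was computed. Bcl2l1 to Mcl1 was 0.529, 0.428 and 0.372 in the stem-labelled libraries, against 0.460, 0.604 and 0.466 in the other libraries, and the groups overlapped. Bid to Mcl1 was 0.322, 0.275 and 0.299 in the stem-labelled libraries, against 0.254, 0.228 and 0.255 in the other libraries, with overlap after the correction.

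**Figure D4:**
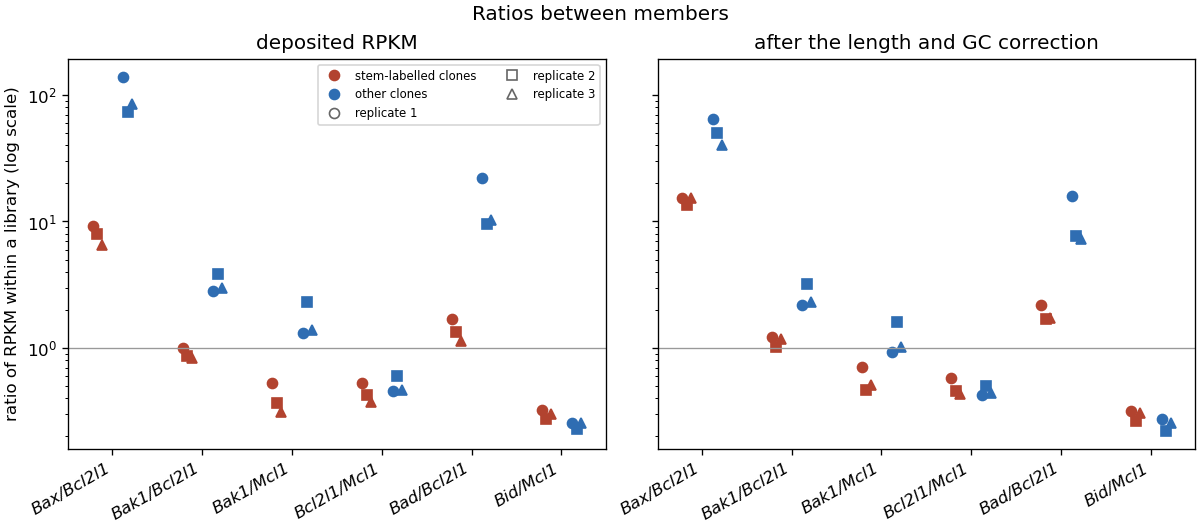
Ratio of the RPKM of 2 members within each library on a log axis, stem-labelled left of other clones, on the deposited values and after the length and GC correction. The ratios of Bax, Bak1 and Bad to antiapoptotic genes lie lower in the stem-labelled clones in both panels, and Bcl2l1 to Mcl1 overlaps.

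The promoters of the members that moved with the smallest p in each direction, Bax and Bcl2l11, are shown to let their sequence be read beside their values. Sequences are from RefSeq on GRCm38.p6, 250 bases before to 50 bases after the start. All 8 members called on the deposited RPKM, here with Bcl2 and without Bbc3, were matched by symbol. Capitals mark CACGTG, the E box bound by MYC family factors, in Bax, and GTAAACA, a forkhead element bound by FOXO factors, in Bcl2l11, on either strand.
Bax, chr7:45466849-45467148, minus strand: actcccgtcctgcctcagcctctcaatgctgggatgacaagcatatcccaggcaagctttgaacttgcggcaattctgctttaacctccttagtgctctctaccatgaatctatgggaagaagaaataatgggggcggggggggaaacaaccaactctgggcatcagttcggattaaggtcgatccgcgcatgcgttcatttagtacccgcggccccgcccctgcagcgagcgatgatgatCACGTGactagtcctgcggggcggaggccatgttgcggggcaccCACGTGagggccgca
Bcl2l11, chr2:128125788-128126087, plus strand: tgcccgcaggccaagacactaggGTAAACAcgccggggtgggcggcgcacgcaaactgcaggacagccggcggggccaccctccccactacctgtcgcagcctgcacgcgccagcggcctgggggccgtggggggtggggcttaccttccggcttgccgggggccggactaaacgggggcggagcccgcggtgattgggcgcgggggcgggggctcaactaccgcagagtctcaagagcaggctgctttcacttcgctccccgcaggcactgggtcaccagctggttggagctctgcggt
Bax held 2 E boxes and was the only one of the 8 promoters with one, where 7.15% of 32851 promoters hold it. Bcl2l11 was the only one of the 8 with the forkhead element, where 3.65% of all promoters hold it. The GC box GGGCGG was in 6 of the 8 (35.7% of all promoters), CCAAT in 1 (37.4%) and TATAAA in 0 (13.6%), each searched on both strands. A match of letters is no evidence of binding.

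The tested genes whose pattern over the 6 libraries was most like that of Bax were Scrn2, Gipc1 and Eif6, with mean absolute differences of 0.06, 0.06 and 0.09 in centred log2 of RPKM + 1. Eif6, which encodes a factor that binds the large ribosomal subunit, had 62.5 ± 16.5 RPKM in the stem-labelled clones and 470.2 ± 169 RPKM in the other clones (SD, n = 3 each). After the correction Scrn2, Gipc1 and Eif6 changed by -1.99, -1.83 and -2.31, against -1.28 for Bax. The genes most like Bcl2l11 were Sipa1l2, Synj2 and Trim26, with differences of 0.06, 0.06 and 0.07. All were picked by likeness over these same libraries, so their direction follows from the choice. Among the members themselves, Bid and Bcl2 were the closest pair, at 0.10, and Bax and Bcl2l11 the farthest, at 2.28. Bax and Bad differed by 0.21. The closeness of Bid and Bcl2 depends on the added 1, which shrinks the low Bcl2. With 0.1 added in place of 1, Bcl2 changed by 1.76 ± 0.40 and Bid by 1.03 ± 0.22.

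Other genes of the pathway moved in both directions. Over 4 lists of 57 genes, 43 were tested, of which 8 rose, 11 fell and 24 did not pass, against the 29.9% and 25.4% of all genes. Of these, 3 reached 1 RPKM in libraries of only 1 of the groups, which fixed their direction. Of the remaining 40, 6 rose, 10 fell and 24 did not pass, against 27.4% higher and 24.8% lower among all genes at that level in both groups. After the correction 3 of the 43 were called higher and 15 lower, against 25.8% and 22% of all genes. Of the other BCL2 family genes, 7 were tested, and 2 rose, 3 fell and 2 did not pass, with a median of -0.50. After the correction 0 of these 7 were called higher and 1 lower. Bok, a further pore-forming relative of Bax and Bak1, had 59.2, 59.2 and 34.1 RPKM in the stem-labelled libraries, against 412, 296 and 356 RPKM in the other libraries. Bok fell by 2.81 ± 0.29 (limma adjusted p = 0.000148) and by 1.63 ± 0.20 after the correction (limma adjusted p = 0.000374). The BH3-only gene Bik, 1 of the 3 genes with a direction fixed by the filter, reached 1 RPKM only in the other clones. Its change was -1.70 ± 0.24, or -0.07 after the correction. For this low gene the added 1 had shrunk the change before the correction, which may take off too much. Limma-voom on the reads gave -3.95 ± 0.79. Bcl2l12 fell by 0.78 on the log2 scale, with -0.02 after the correction and -0.12 after rescaling, where it did not pass. Bcl2l13, the gene that overlaps Bid, did not pass after the correction either (-0.08).

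Of the apoptosome, caspase and inhibitor genes, 15 were tested, and 2 rose, 4 fell and 9 did not pass, with a median of -0.03. Of all genes tested, 29.9% were called higher and 25.4% lower. After the correction 0 of the 15 were called higher and 8 lower, with a median of -0.45, against 25.8% and 22% of all genes. Of the 2 that rose, Apaf1, named after its values were seen, reached 1 RPKM only in the stem-labelled clones, which fixed its direction. Cycs, the cytochrome c gene whose product the pore releases, had 24.5, 20.7 and 16.4 RPKM in the stem-labelled libraries, against 318, 70.1 and 370.4 RPKM in the other libraries. The groups did not overlap, though replicate 2 of the other clones was far below the other two. Cycs fell by 3.26 ± 0.55 (limma adjusted p = 0.00106) and changed by -2.89 ± 0.49 after the correction. Endog, which encodes a mitochondrial nuclease released with cytochrome c, fell by 2.78 ± 0.34 and by 1.15 ± 0.25 after the correction. The mitochondrial protease gene Htra2 fell by 1.11 ± 0.22 and by 0.48 ± 0.16 after the correction, while its change of -0.21 after rescaling did not pass (limma adjusted p = 0.456). Casp2, which encodes an initiator caspase, rose by 0.72 ± 0.20, but its change of -0.07 after the correction did not pass. Without replicate 1 or replicate 3 of the stem-labelled clones the call of Casp2 was also lost (0.69 and 0.61, limma adjusted p = 0.0559 and 0.0527).

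Of the 10 channel and death receptor genes, 1 rose, 1 fell and 8 did not pass, with a median of 0.11. Of all genes tested, 29.9% were called higher and 25.4% lower. After the correction 2 of the 10 were called higher and 3 lower, against 25.8% and 22% of all genes. Tradd, an adaptor of the TNF receptor, fell by 1.90 ± 0.25 (limma adjusted p = 0.000327) and by 0.97 ± 0.18 after the correction. The kinase gene Ripk1 reached 1 RPKM only in the stem-labelled clones, so its direction was fixed by the filter, and its change was 0.82 ± 0.21, or 0.29 after the correction. Of 11 tested regulators of the family, 3 rose, 3 fell and 5 did not pass, with a median of 0.13, against the same shares of all genes. After the correction 1 of the 11 was called higher and 3 lower. Foxo3, a forkhead factor known to activate Bcl2l11, had 3.61, 5.28 and 5.24 RPKM in the stem-labelled libraries, against 0.909, 1.26 and 1.06 RPKM in the other libraries, a change of 1.45 ± 0.20 (limma adjusted p = 0.000409, 0.73 after the correction). Whether Foxo3 bears on Bcl2l11 here was not tested.

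Huwe1, a ubiquitin ligase of MCL1, rose by 1.26 ± 0.29 (0.14 after the correction, where it did not pass). Trp53, whose product activates Bax and Bbc3 where it is functional, had 8.20, 8.01 and 8.57 RPKM in the stem-labelled libraries, against 17.2, 21.1 and 21.6 RPKM in the other libraries. Trp53 fell by 1.17 ± 0.19 (limma adjusted p = 0.000953) and by 1.50 ± 0.17 after the correction, but its change of -0.30 ± 0.24 after rescaling did not pass (limma adjusted p = 0.269). These values do not show whether the Trp53 product is functional in these cells. Any bearing of Trp53 on Bax or Bbc3 here was not tested. The cell cycle factor gene E2f1 fell by 1.65 ± 0.31, by 1.20 ± 0.23 after the correction and by 0.73 ± 0.30 after rescaling.

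**Figure D5:**
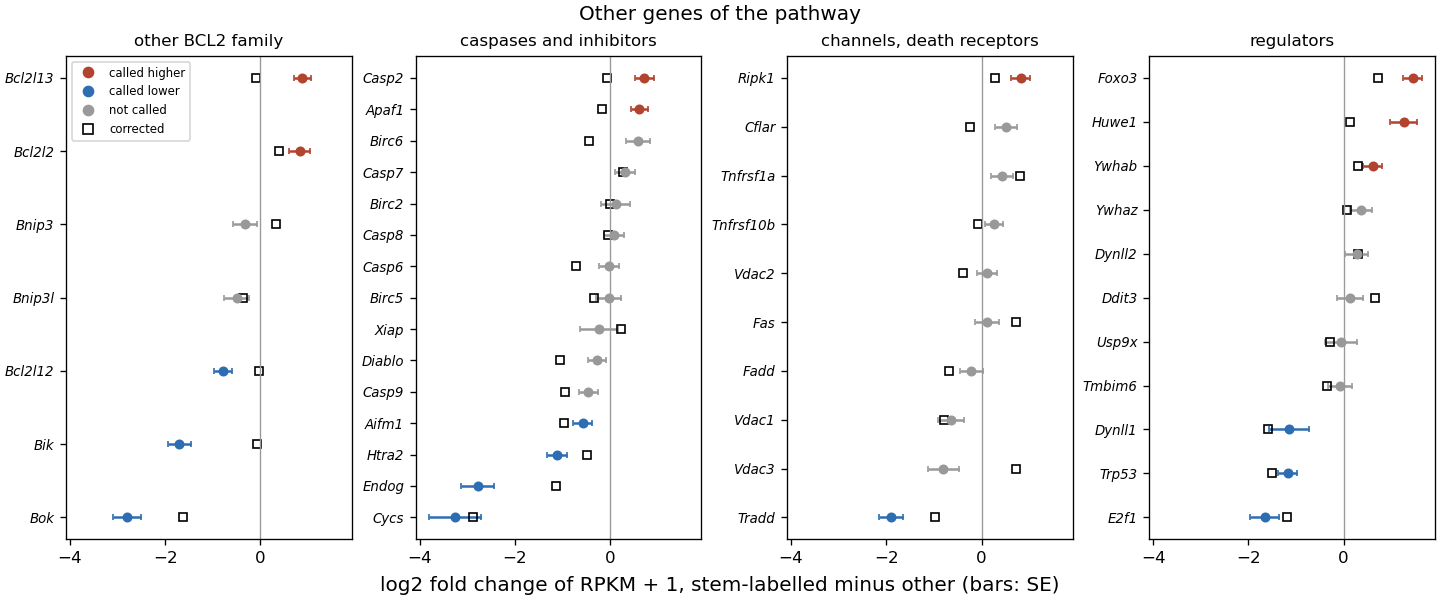
Log2 fold change (stem-labelled minus other, filled points, bars SE) of the 43 tested genes of the 4 lists, with the value after the length and GC correction as open squares. Bok and Cycs fell with and without the correction, and Bik and Bcl2l12 lie near 0 after it.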

How the data were processed

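The authors deposited 1 file of RPKM per library, made by them from messenger RNA sequencing of 6 libraries with a standard Illumina protocol, per the labels' protocols. The submitters' processing notes name Bowtie2 2.0.6, TopHat2 2.0.9 and mm9 without their roles. The counting program and strand are not given in the sources used here. Starts and ends of 80.2% of genes equalled those of GENCODE M21, so coordinates are on GRCm38. RPKM times gene length gave whole multiples of 1 step in every library (tolerance 0.01, 100% of values), which returned the reads. The tissue label set the group and the title gave the replicate number.

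Genes reaching 1 RPKM in 3 or more libraries were tested with limma 3.58.1 in R 4.3.3, with a variance trend, on log2(RPKM + 1), two-sided, with Benjamini-Hochberg adjustment over 10097 genes. The fit had to pass on simulated data with few changed genes and no length trend. That check cannot vouch for calls in these data, where changes followed length. The correction subtracted each library's spline fit (5 degrees of freedom) of deviations on log2 length and on the GC content of the longest transcript. It may also remove group differences that follow length. For low genes it was taken off a change that the added 1 had shrunk, so it may take off too much. All members were named, then up to 4 called genes per list by smallest p, and the 3 genes most like the top member of each direction. Members, lists and alternatives were chosen with earlier results of these data known. Same-numbered libraries did not deviate together, so the numbers were not taken as pairs. 1 gene of the lists is not reported here.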

Additional observations from a re-analysis of the deposited data

How the results depend on the processing

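Besides the main setting, 17 settings were run. Bax, Bad and Bcl2l11 kept their direction and call under all 17. Bak1 lost its call on rescaling to summed reads and with the replicate block plus the length and GC correction. The sign of Bbc3 turned with the correction (0.67, the same with the replicate block added) and on rescaling (0.48), and that of Bcl2 with the correction (-0.0058, with and without the block). Why was not tested. With Bcl2 counted, the members called higher numbered 5, and 3 with the correction, 2 with the block plus the correction, and 2 to 4 without single libraries. Bbc3, with its sign turned, is among those 3 and those 2, and Bcl2l11 is the other of the 2. With the block plus the correction Bid, Bcl2l1 and Mcl1 did not pass (limma adjusted p = 0.0982, 0.101 and 0.241). In that setting 4312 of all 10097 genes were called. All members called numbered 8, with 4 under the block plus the correction and 5 to 7 without single libraries. Without any one stem-labelled library Bcl2 missed the filter, so no value was had. The members called lower numbered 3 without each single library. Same-numbered libraries deviated with correlations of -0.13, 0.03 and -0.08, and the replicate block alone left Bcl2l1 uncalled (limma adjusted p = 0.0866) and the other 7 calls in place.

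The differences of log2 ratios moved with the correction to -1.78 for Bax to Bcl2l1, -1.16 for Bak1 to Bcl2l1, -1.06 for Bak1 to Mcl1 and -2.36 for Bad to Bcl2l1, and turned sign for Bcl2l1 to Mcl1 (0.10 against -0.21). Over all genes, 3014 were higher and 2563 lower, with 5926 and 1245 on rescaling, and 1405 higher of 3477 called with mean RPKM at least 5, where fewer genes were tested. Without single libraries 2068 to 3034 were higher, 2149 to 2302 lower and 4286 to 5336 called. Of the other pathway genes, 8 were higher, and 2 with the block plus the correction, 3 with the correction, 1 with mean RPKM at least 5, 14 with upper-quartile scaling and 22 on rescaling, where 6 were lower. With mean RPKM at least 5, 10 were called. Without single libraries 3 to 9 were higher, 9 to 12 lower and 12 to 20 called. Limma-voom on the recovered reads, chosen after seeing the data, left Bcl2l1 uncalled (limma adjusted p = 0.111). The planned count models were not run, since the deposited unit is RPKM. Depth limits Pmaip1, with 3 reads in all.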
